A study of Mus musculus with 24 samples.

Results

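Immediate early genes are the first genes a neuron transcribes after a burst of activity, and the 10 described here are Fos, Fosb, Junb, Egr1, Egr2, Arc, Nr4a1, Nr4a3, Npas4 and Ier5l. They were chosen by symbol from the 24411 genes of a table of read counts of mouse hippocampus, and each was found there once. In old mice and in mice with a tau transgene the study asked whether an antisense drug changes the hippocampal transcriptome, and the values below show what these 10 activity genes did in each of its 6 groups.

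Calcium entry and kinase signalling at active synapses reach the nucleus within minutes and act on factors already bound at these genes, among them CREB, SRF and MEF2, so that the transcripts appear and disappear within hours. In the hippocampus they are used as a trace of recent neuronal activity, for example after exploration of a new place or after a seizure. Most encode transcription factors that switch on a later set of genes, whereas Arc encodes a protein that acts at the synapse itself.

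The first model was natural aging in wild-type C57/B6 mice and held Old-Nano mice (20 months, Nanoligomer), old mice (20 months, control) and young mice (9 months, control). The Nanoligomer is a mixture of antisense peptide nucleic acids on gold nanoparticles against NF-κB and NLRP3, 2 drivers of inflammation, and it was injected repeatedly for about a month. The second model held rTg4510-Nano mice (3 months, Nanoligomer), rTg4510 mice (3 months, control) and littermate (LM) controls (3 months). The labels give the strain of this model as C57/B6 too. In rTg4510 mice a mutant human tau is expressed from a forebrain neuron driver and tau pathology starts early. The LM group was taken as titled and described, as its genotype tag reads rTg4510, and the exact genotype of the littermates is not given in the sources used here. The 2 models came from different suppliers and differ in age, so that model, source and age cannot be told apart. Each group has 4 libraries, named here by the letter and number in their titles, except that M2 and M3 of rTg4510 hold the same count in every gene and were counted once, which leaves n = 3 in that group and 23 distinct libraries. Each library is bulk RNA of whole hippocampus, so fewer cells of a type and less RNA per cell cannot be told apart. The time between handling or anaesthesia and dissection, to which these genes respond, is not given per mouse.

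The libraries held 17214974 to 27424344 counts, and a member had 17 to 20089 counts in a library (Egr2 in rTg4510-Nano M2 and Egr1 in Young M4). All 6 neuron markers, all 6 CA pyramidal markers and all 5 dentate granule markers listed were detected in every library. Several libraries nevertheless stood apart in markers of other tissue. A marker score is the mean log2 CPM (read counts scaled to the size of the library) of a marker list, less that of the median library. Olfactory bulb markers stood at 6.70 in Young M4 and 4.57 in Old M1, and hypothalamus markers at 6.97 in rTg4510-Nano M2. Striatum markers were highest in Old M1, at 4.12, followed by rTg4510-Nano M2 at 1.75. Cortex markers were highest in Old-Nano F1, at 2.39. Hepatocyte markers stood at 6.70 in Young F4, 6.03 in Old F3 and 5.88 in Young M4, and those of pituitary reached 6.08 in M3 of rTg4510-Nano and 4.51 in M1 of LM. The CA pyramidal score was -2.65 to -2.01 in Old-Nano F1, Old M1, Young M4, rTg4510-Nano M2 and rTg4510 F1, against -0.96 to 0.67 in the other 18 libraries. The dentate granule score was -3.35 in Young M4 and -3.21 in Old M1, against -1.99 to 1.19 in the others. Dentate granule markers, though detected, summed to only 15.2 CPM in Young M4, against 108 to 477 CPM elsewhere. Choroid plexus markers summed to 4549 to 19022 CPM in rTg4510 libraries, against 35.9 to 106 CPM in rTg4510-Nano and 38.3 to 251 CPM in LM libraries. Fold changes that rest on rTg4510-Nano M2, Old M1 or Young M4 are also given without them.

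The promoters of 8 of the 10 genes were matched by symbol in a table of RefSeq windows (GRCm38.p6, 250 bases before to 50 bases after the start of transcription), and those of Egr1 and Arc were not. Each window was searched for the core of the cAMP response element, which CREB binds (TGACG, on either strand), for its full palindromic form (TGACGTCA, which contains that core on both strands), for the CArG box that SRF binds and for a TATA core (TATAA, on either strand). The CRE core was in 7 of the 8 windows, against 20.8% of all 32851 windows, and at least 2 copies were in 5 of the 8, against 5.01%. Ier5l was the window without one. The full palindrome was in none of the 8 and in 1.79% of all windows, a CArG box in that of Egr2 and in 1.63% of all, and a TATA core in those of Fos, Junb and Npas4 and in 24.9% of all. Sites more than 250 bases before the start lie outside the windows, so a window without a motif does not mean a gene without one. Egr2 has 5 windows in the table, and the first of the 3 that overlap each other was used. These 3 held 2 CRE cores each and the other windows none. The sequences shown are those of Nr4a1, Egr2 and Fos, whose transcripts varied together across libraries, and of Nr4a3 and Ier5l, whose transcripts did not follow them. They run 5′ to 3′ on the strand of the gene, with CRE cores, CArG box and TATA core in capitals.
Nr4a1, chr15:101266596-101266895, plus strand: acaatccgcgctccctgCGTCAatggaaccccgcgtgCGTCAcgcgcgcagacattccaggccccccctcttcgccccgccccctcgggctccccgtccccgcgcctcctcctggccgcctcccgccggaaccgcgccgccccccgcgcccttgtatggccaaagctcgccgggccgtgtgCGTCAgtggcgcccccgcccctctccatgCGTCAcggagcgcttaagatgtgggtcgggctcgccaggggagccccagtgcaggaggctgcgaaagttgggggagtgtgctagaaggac
Egr2, chr10:67537619-67537918, plus strand: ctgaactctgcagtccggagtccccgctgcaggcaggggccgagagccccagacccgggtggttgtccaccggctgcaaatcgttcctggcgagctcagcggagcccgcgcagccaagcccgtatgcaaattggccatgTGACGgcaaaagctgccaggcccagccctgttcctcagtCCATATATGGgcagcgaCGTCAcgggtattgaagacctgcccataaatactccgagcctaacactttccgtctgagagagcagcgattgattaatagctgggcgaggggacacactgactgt
Fos, chr12:85473640-85473939, plus strand: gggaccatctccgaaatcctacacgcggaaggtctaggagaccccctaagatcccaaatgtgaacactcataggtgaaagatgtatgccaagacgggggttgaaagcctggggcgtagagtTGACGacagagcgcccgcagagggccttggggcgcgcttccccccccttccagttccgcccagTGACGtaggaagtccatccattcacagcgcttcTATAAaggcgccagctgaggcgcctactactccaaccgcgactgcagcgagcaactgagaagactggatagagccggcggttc
Nr4a3, chr4:48045055-48045354, plus strand: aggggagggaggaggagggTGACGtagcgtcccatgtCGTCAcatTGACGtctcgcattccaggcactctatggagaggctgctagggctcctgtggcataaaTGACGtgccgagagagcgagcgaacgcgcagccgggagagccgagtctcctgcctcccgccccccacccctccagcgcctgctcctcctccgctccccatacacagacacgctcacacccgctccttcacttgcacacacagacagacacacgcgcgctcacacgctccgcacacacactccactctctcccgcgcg
Ier5l, chr2:30474150-30474449, minus strand: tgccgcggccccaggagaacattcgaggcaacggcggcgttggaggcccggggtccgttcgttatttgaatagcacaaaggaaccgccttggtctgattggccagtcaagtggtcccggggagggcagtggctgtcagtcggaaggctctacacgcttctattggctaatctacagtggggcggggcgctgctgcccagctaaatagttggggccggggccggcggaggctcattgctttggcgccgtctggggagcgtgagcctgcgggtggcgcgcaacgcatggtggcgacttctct
Nr4a1 and Nr4a3 both carried 4 CRE cores, Egr2 and Fos 2 each, and the GC share ran from 58.7% in Fos to 72.3% in Nr4a1. A match of letters is a description and not evidence of binding, and nothing was measured on these promoters here.

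Per length of exon, Arc and Egr1 were the most abundant of the 10 genes, at a median of 43.8 and 42.6 CPM per kb over the 23 libraries, and these 2 levels cannot be ranked given their ranges of 10.7 to 160 and 10.8 to 181 CPM per kb. Junb followed at 28.0 CPM per kb, then Nr4a3 at 18.3 and Nr4a1 at 17.2 CPM per kb, again with overlapping ranges. Fos was at 5.96, Ier5l at 4.61, Npas4 at 2.39 and Fosb at 2.04 CPM per kb. Egr2 was the lowest at 0.775 CPM per kb. Fos and Npas4, the genes tied most closely to recent firing, were thus below Arc and Egr1 in median level per length.

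**Figure D1:**
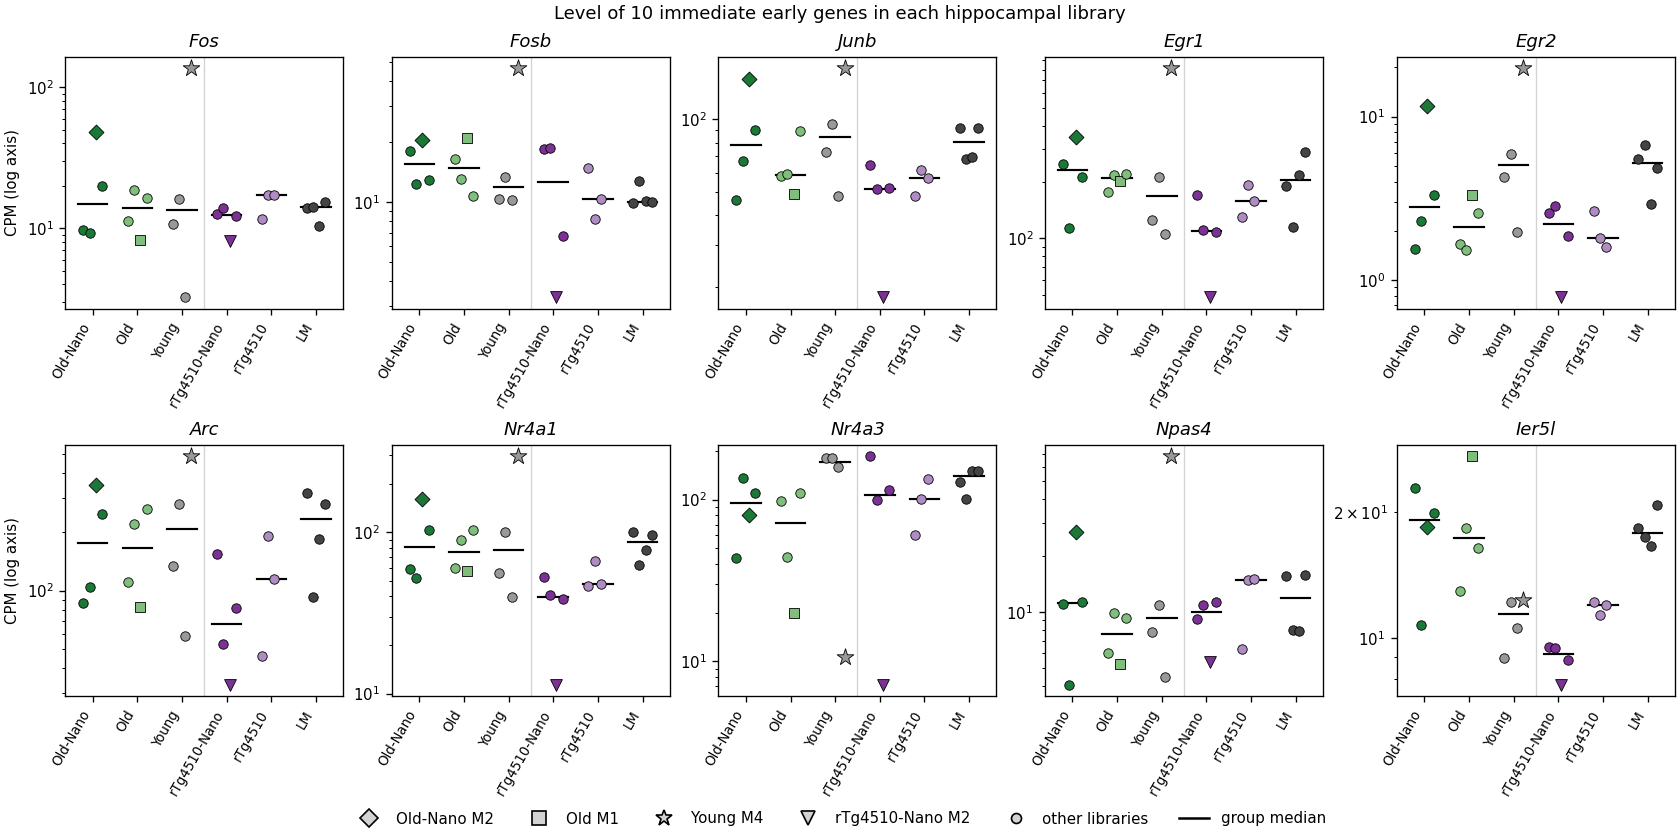
Level of each of the 10 genes in every library (CPM, log axis), with Old-Nano, old and young mice left of the grey line and rTg4510-Nano, rTg4510 and LM mice right of it; horizontal bars are group medians. Young M4 (star) is the highest young library for 9 of the 10 genes and the lowest for Nr4a3, rTg4510-Nano M2 (triangle) is the lowest of its group for all 10, and Ier5l alone separates old from young mice.

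Of the 10 genes, 9 varied far more between mice of the same group than most genes did. The standard deviation of log2 CPM within groups was 1.09 for Fos, 0.99 for Arc, 0.96 for Npas4, 0.90 for Egr2, 0.78 for Nr4a1, 0.75 for Egr1, 0.72 for Fosb and 0.59 for Junb, against a median of 0.23 over 13154 genes with a mean count of at least 50. Nr4a3 had the largest, 1.37, above that of 98.7% of genes. Ier5l had 0.30, above that of 66.1%.

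Single libraries carried much of this spread. Fos, the AP-1 subunit that gives the family its name, was at 9.77, 9.22, 48.1 and 20.0 CPM in Old-Nano F1, F2, M2 and M5, at 11.2, 18.7, 8.24 and 16.5 CPM in Old F2, F3, M1 and M3, and at 10.8, 16.1, 3.23 and 136 CPM in Young F2, F4, M1 and M4. The young group therefore held both the highest and the lowest Fos of the series, 42.2-fold apart. In the tau model Fos was at 12.5, 14.0, 8.14 and 12.2 CPM in rTg4510-Nano F1, F2, M2 and M3, at 11.6, 17.3 and 17.2 CPM in rTg4510 F1, F3 and M2, and at 14.0, 14.1, 10.4 and 15.4 CPM in LM F2, F3, M1 and M2, with all 3 groups overlapping.

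Npas4, a factor that neurons induce through calcium entry, repeated this shape. It was at 11.0, 4.05, 26.8 and 11.3 CPM in Old-Nano F1, F2, M2 and M5, at 6.01, 9.88, 5.22 and 9.21 CPM in Old F2, F3, M1 and M3, and at 7.77, 10.8, 4.49 and 68.5 CPM in Young F2, F4, M1 and M4. Old-Nano M2 was the highest library of its group for 8 of the 10 genes (20.3% of all 13154 genes), Young M4 for 9 (39.6% of all), and Young M1 was the lowest of its group for 8 (19.5% of all). In the tau model rTg4510-Nano M2 was the lowest of its group for all 10 genes (40.3% of all), with a median deviation of -1.29 from the group median on the log2 scale. That library is the one with hypothalamus markers, and the part of other tissue in its low values was not tested.

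**Figure D2:**
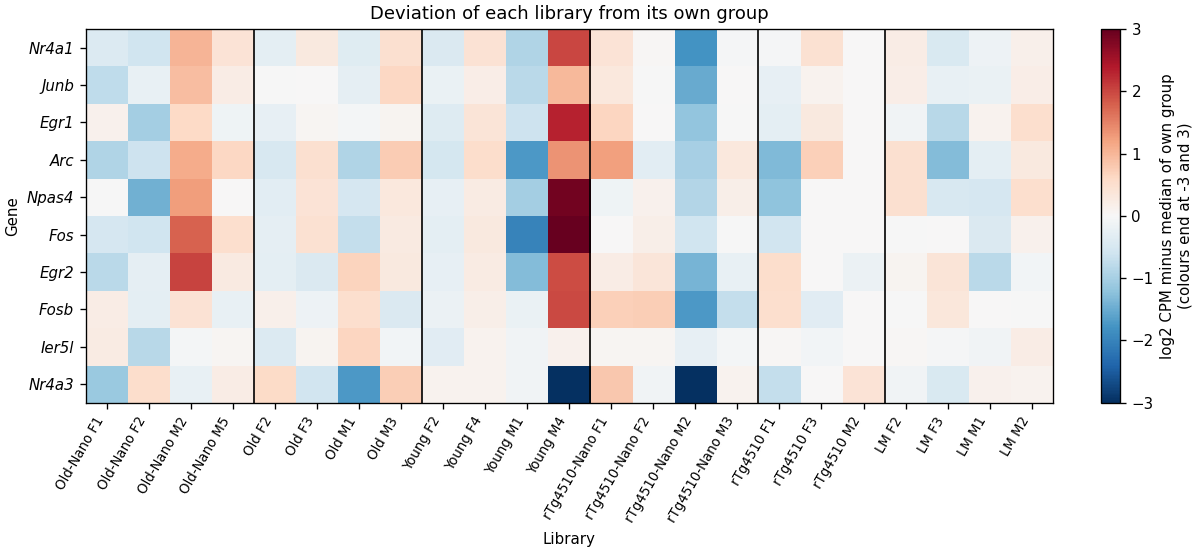
Log2 CPM of each gene minus the median of the library's own group, for 23 libraries (columns, black lines between groups); colours end at -3 and 3, and the rows run from the gene that follows the other members most closely (Nr4a1) to the one that follows them least (Nr4a3). The upper 8 genes all deviate with the same sign in Old-Nano F2, Old-Nano M2, the 4 young libraries and rTg4510-Nano M2, most strongly in Young M4, and Nr4a3 in the last row takes the opposite colour in Young M4.

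Within groups, 8 of the 10 genes moved together. Pearson r between a gene's deviation from its group mean and the mean deviation of the other 9 was 0.98 for Nr4a1, 0.96 for Junb, 0.86 for Egr1, 0.82 for Arc, 0.82 for Npas4, 0.79 for Fos, 0.77 for Egr2 and 0.61 for Fosb over the 23 libraries. It was 0.27 for Ier5l and -0.13 for Nr4a3. These values describe libraries that share dissection and depth and are given without a test. Without rTg4510-Nano M2, Old M1 and Young M4, r was 0.96 for Nr4a1, 0.92 for Junb and 0.88 for Fos, whereas that of Fosb was 0.10, so the place of Fosb among the 8 rested on these 3 libraries. With Old-Nano M2 left out as well, r was 0.94 for Nr4a1, 0.86 for Junb, 0.83 for Arc and 0.81 for Fos. It was then 0.67 for Npas4, 0.66 for Egr1 and 0.48 for Egr2.

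The genes outside the list whose deviations were most like the mean of the 10 were Egr4, a zinc finger factor of the same family as Egr1 (r = 0.92), then Vash1 (0.89), the phosphatase gene Ptpn1 (0.87), the early response gene Ier2 (0.87), Dusp5, a nuclear phosphatase of ERK (0.84), Mcl1, a survival factor of the BCL2 family (0.83), Btg2, an early antiproliferative gene (0.82), Tet3, a DNA demethylation enzyme (0.82), Car7 (0.81) and Slc35a4 (0.81), among 13154 genes and over 23 libraries. Without rTg4510-Nano M2, Old M1 and Young M4, Egr4 (0.94), Ier2 (0.88) and Mcl1 (0.83) still led, and the other 7 names changed. With Old-Nano M2 left out as well, Egr4 (0.90) still led, and of the other names first given only Ptpn1 (0.83) was among the top 10.

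Nr4a3, an orphan nuclear receptor related to Nr4a1, did not follow the rest of the genes. It was at 43.2, 135, 80.7 and 109 CPM in Old-Nano F1, F2, M2 and M5, at 98.4, 44.1, 19.9 and 110 CPM in Old F2, F3, M1 and M3, and at 182, 181, 158 and 10.6 CPM in Young F2, F4, M1 and M4. Young M4, highest for the other 9 genes, was thus far below the rest of its group for Nr4a3. In the tau model Nr4a3 was at 186, 98.9, 7.13 and 114 CPM in rTg4510-Nano F1, F2, M2 and M3, at 60.8, 100.1 and 133 CPM in rTg4510 F1, F3 and M2, and at 128, 100.4, 150.5 and 149.7 CPM in LM F2, F3, M1 and M2.

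The 5 libraries with the lowest CA pyramidal scores had 7.13 to 60.8 CPM of Nr4a3, against 44.1 to 186 CPM in the other 18. Across the 23 libraries, Pearson r between log2 CPM of Nr4a3 and the CA pyramidal score was 0.85 (Spearman rho 0.84), and r within groups was 0.85. Other lists came near: the within-group r of Nr4a3 was 0.73 with dentate granule and 0.72 with heat shock markers. It was -0.77 with olfactory bulb, -0.66 with striatum (Spearman rho -0.845 across libraries) and -0.63 with hypothalamus markers. Which of these lists bears on Nr4a3 was not tested. For the other members the within-group r with the CA pyramidal score ran from -0.43 (Ier5l) to 0.35 (Arc), with 0.33 for Junb, -0.15 for Fos and -0.11 for Egr2. For the mean of all members it was 0.15. Without rTg4510-Nano M2, Old M1 and Young M4 that mean had an r of 0.50 with the CA pyramidal score. Its r was then 0.47 with dentate granule and 0.63 with oligodendrocyte markers, the highest of the 15 lists. The part of tissue composition in these values was not tested. For Fos the highest within-group r of the 15 marker lists was 0.645, with hepatocyte markers, whose part in the Fos values was not tested. The 6 markers of the CA pyramidal score are Fibcd1, Wfs1, Spink8, Iyd, Grik4 and Bok, all above 0 in every library, and the part of dissection in the Nr4a3 values was not tested beyond this.

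**Figure D3:**
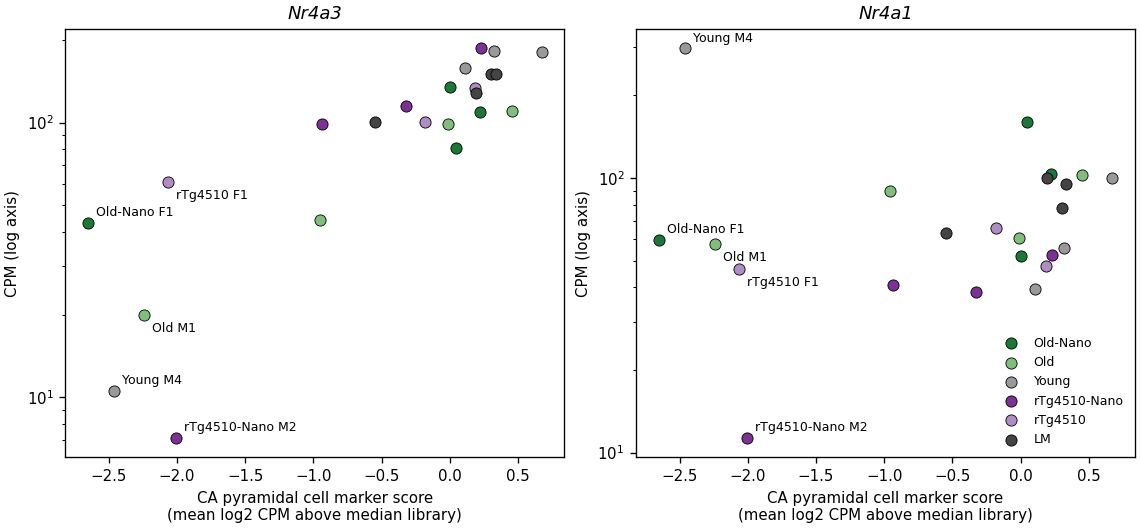
CPM (log axis) of Nr4a3 (left) and Nr4a1 (right) against the CA pyramidal cell marker score of each of the 23 libraries, coloured by group; the 5 libraries with a score under -2 are named. Nr4a3 is at 7.13 to 60.8 CPM in these libraries and at 44.1 to 186 CPM in the other 18, whereas Nr4a1 spans 11.3 to 296 CPM among them, its lowest and its highest value of the series.

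In old against young mice, none of the 10 genes passed the threshold in edgeR (adjusted p under 0.05), 2 had an unadjusted p under 0.05 (10.3% of all genes), and DESeq2 called none. Of 15335 genes tested, edgeR called 2 (0.013%) and DESeq2 235 of 15334 (1.53%). The fitted log2 fold changes were negative for 9 genes and positive for Ier5l, with a median of -0.65, against -0.02 over all genes. That direction rested on Young M4. Without it the median was 0.17, with 6 genes positive and 4 negative, and without both Old M1 and Young M4 it was 0.28, with 7 positive.

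Egr2, a zinc finger factor, had the most negative fold change with all libraries. It was at 1.67, 1.52, 3.32 and 2.56 CPM in Old F2, F3, M1 and M3, against 4.25, 5.92, 1.97 and 19.7 CPM in Young F2, F4, M1 and M4. Of the 4 young libraries 3 were above every old one, and Young M1 lay within the old range. The log2 fold change of Egr2 was -1.82 (standard error, SE, 0.68, adjusted p 0.441 in edgeR, n = 4 per group). Without Young M4 it was -0.84, and it stayed negative in each fit that left out 1 library. Without Young M4 the most negative was Nr4a3, at -1.35 (SE 0.52, adjusted p 0.295 in edgeR). Its 4 old libraries were at 19.9 to 110 CPM, against 158 to 182 CPM in the other 3 young ones and 10.6 CPM in Young M4. With all libraries the groups overlapped (exact permutation test, p 0.657). How many of all genes separate once Young M4 is left out was not counted, so no weight is put on the gap. The lowest of these old values was that of Old M1, which was low in CA pyramidal markers like Young M4. Without both Old M1 and Young M4 the most negative gene was Egr2, at -1.08. For Fos the log2 fold change was -1.62 (SE 1.02, adjusted p 0.603), and without Young M4 it was 0.44.

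Ier5l, of the IER5 family of early response genes, was the exception in direction and in spread. It was at 13.0, 18.3, 27.3 and 16.4 CPM in Old F2, F3, M1 and M3, against 8.97, 12.2, 10.6 and 12.4 CPM in Young F2, F4, M1 and M4. Every old library was above every young one, which held for 4.51% of all genes in this direction. The log2 fold change of Ier5l was 0.76 (SE 0.23, adjusted p 0.376 in edgeR). Across leave-one-out fits it was 0.52 to 0.91, with the lowest value without Old M1. Cortex markers differed in the same direction: all 5 were detected, and they summed to 246 to 384 CPM in old and 76.6 to 214 CPM in young libraries. In Old-Nano libraries they summed to 144 to 833 CPM. They were highest in Old-Nano F1, which had the most Ier5l of its group, and lowest in Old-Nano F2, which had the least. The order did not hold in other groups. Among old libraries cortex markers were highest in F3 and Ier5l in M1. In rTg4510-Nano M2 cortex markers were the highest of its group (174 CPM) and Ier5l the lowest (7.73 CPM). Across the 23 libraries the r between log2 CPM of Ier5l and the cortex score was 0.59, the highest of the 15 marker lists, and the part of cortex in the Ier5l difference was not tested.

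The other members overlapped between old and young mice. Arc, whose protein removes AMPA receptors from the synapse, was at 111, 219, 82.9 and 264 CPM in Old F2, F3, M1 and M3, against 134, 279, 58.7 and 490 CPM in Young F2, F4, M1 and M4. Egr1, a zinc finger factor of memory formation, was at 178 to 222 CPM in old mice, a narrow range, and at 106 to 812 CPM in young mice. Junb was at 49.0 to 89.8 CPM in old and 47.7 to 163 CPM in young mice, Fosb at 10.7 to 20.7 CPM in old and 10.1 to 46.5 CPM in young mice, and Nr4a1 at 57.3 to 103 CPM in old and 39.5 to 296 CPM in young mice.

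With Nanoligomer treatment in old mice, neither edgeR nor DESeq2 called any of the 10 genes, nor gave any of them an unadjusted p under 0.05. Of 15253 genes tested, edgeR called 0 (0%), with 185 at an unadjusted p under 0.05 (1.21%), and DESeq2 called 0. Fitted log2 fold changes were positive for 9 genes and negative for Ier5l, with a median of 0.35 (all genes -0.00). They rested on Old-Nano M2. Without that library the median was -0.07, with 4 genes positive and 6 negative.

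Junb, an AP-1 subunit, was at 46.0, 66.8, 148 and 90.0 CPM in Old-Nano F1, F2, M2 and M5, against 58.3, 59.0, 49.0 and 89.8 CPM in Old F2, F3, M1 and M3. Nr4a1 was at 59.4, 52.1, 160 and 103 CPM in the same Old-Nano libraries, against 60.2, 89.6, 57.3 and 103 CPM in the same old libraries. In both genes Old-Nano M2 was above every old library and the rest overlapped. Egr2 was at 1.54, 2.29, 11.6 and 3.33 CPM in Old-Nano F1, F2, M2 and M5, against 1.52 to 3.32 CPM in old mice, so that M2 lay well above the old range, M5 at its upper edge and the other Old-Nano libraries within it. The groups also overlapped for Arc (86.0 to 348 CPM in Old-Nano, 82.9 to 264 CPM in old mice), Egr1 (114 to 349 CPM in Old-Nano, 178 to 222 CPM in old mice) and Fosb (12.3 to 20.5 CPM in Old-Nano, 10.7 to 20.7 CPM in old mice). Fos had a log2 fold change of 0.67 (SE 0.54, adjusted p 0.9999 in edgeR), which was -0.07 without Old-Nano M2.

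Ier5l overlapped between treated and untreated old mice, at 22.9, 10.7, 18.4 and 19.9 CPM in Old-Nano F1, F2, M2 and M5, against 13.0 to 27.3 CPM in old mice, with a log2 fold change of -0.06 (SE 0.28, adjusted p 0.9999). Against young mice the log2 fold change of Ier5l in Old-Nano mice was 0.71 (SE 0.23, adjusted p 0.415), with Old-Nano F2 inside the young range. Ier5l was the gene of the 10 with an unadjusted p under 0.05 in that comparison (10.6% of all genes), where edgeR called none of the 10 and 1 of 15368 genes (0.00651%) and DESeq2 none of the 10 and 262 of 15367 (1.7%). Fos was at a log2 fold change of -0.93 (SE 1.10, adjusted p 0.792 in edgeR) and 1.13 without Young M4, and DESeq2 gave no p for it there. The median log2 fold change of the 10 genes in Old-Nano against young mice was -0.41 (all genes -0.02), and 0.52 without Young M4. The comparisons with treated old mice share the old or the Old-Nano libraries.

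**Figure D4:**
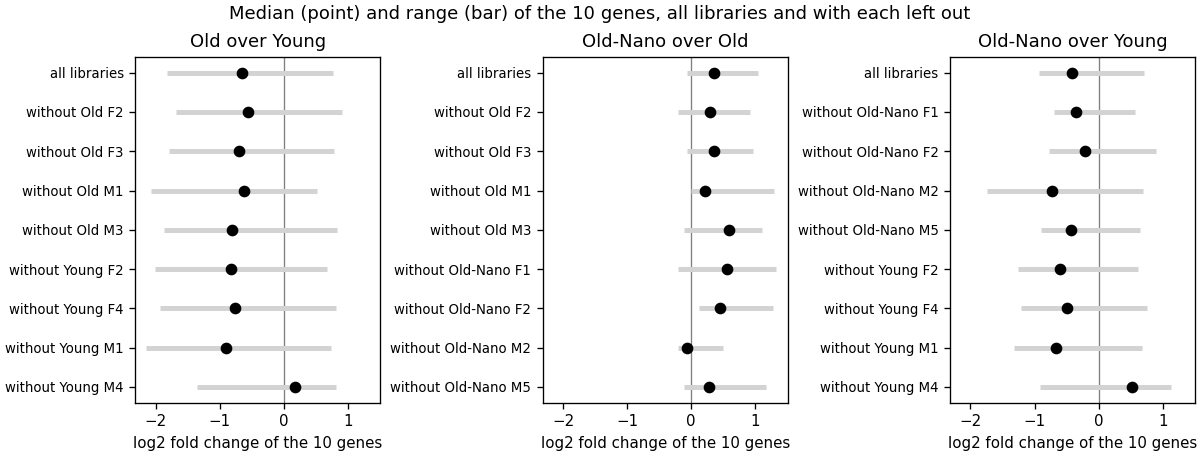
Median (points) and range (grey bars) of the log2 fold changes of the 10 genes in the 3 comparisons of the aging model, with all libraries and with each library left out. The median of Old over Young is -0.65 with all libraries and 0.17 without Young M4, and that of Old-Nano over Old is 0.35 with all libraries and -0.07 without Old-Nano M2.

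In rTg4510 mice against LM controls, edgeR called none of the 10 genes and 126 of 15149 genes (0.832%), 4 of the 10 had an unadjusted p under 0.05 (13.7% of all genes), and DESeq2 called 4 of the 10. These 4, Junb, Egr2, Nr4a1 and Ier5l, were lower in rTg4510 mice, where DESeq2 called 762 of 15145 genes in either direction (5.03%) and 175 lower (1.16%). The median log2 fold change of the 10 genes was -0.48, against -0.00 over all genes, with 7 negative and 3 positive. All rTg4510 libraries were below all LM libraries for Junb, Egr2 and Ier5l, which held for 5.35% of all genes.

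Egr2 was at 2.63, 1.80 and 1.59 CPM in rTg4510 F1, F3 and M2, against 5.50, 6.74, 2.91 and 4.87 CPM in LM F2, F3, M1 and M2. The groups did not overlap, though LM M1 was close to rTg4510 F1. The log2 fold change of Egr2 was -1.31 (SE 0.34, adjusted p 0.134 in edgeR and 0.00956 in DESeq2). Without 1 library it was -1.56 to -1.13, and edgeR called it in none of these fits.

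Ier5l, which lies at chr2:30471537-30474219 on the minus strand (GRCm38), was at 12.2, 11.3 and 12.002 CPM in rTg4510 F1, F3 and M2, against 18.3, 17.4, 16.6 and 20.9 CPM in LM F2, F3, M1 and M2. The 3 rTg4510 values lay close together and all below the lowest LM value. The log2 fold change of Ier5l was -0.62 (SE 0.12, adjusted p 0.0588 in edgeR and 0.000677 in DESeq2), and -0.69 to -0.56 with 1 library left out.

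Junb was at 47.7, 61.4 and 56.9 CPM in rTg4510 mice, against 91.7, 68.5, 69.7 and 91.8 CPM in LM controls, in the order of libraries just given. Its log2 fold change was -0.54 (SE 0.15, adjusted p 0.155 in edgeR and 0.0294 in DESeq2), and -0.63 to -0.44 with 1 library left out. Nr4a1 was at 46.7, 65.8 and 47.9 CPM in rTg4510 mice, against 99.9, 63.0, 77.8 and 95.5 CPM in LM controls, with rTg4510 F3 above LM F3. Its log2 fold change was -0.65 (SE 0.19, adjusted p 0.184 in edgeR and 0.0333 in DESeq2), and -0.83 to -0.56 with 1 library left out.

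Fos and Npas4 overlapped between these groups. The log2 fold change of Fos was 0.19 (SE 0.19, adjusted p 0.742 in edgeR), and Npas4 was at 6.33, 14.8 and 15.0 CPM in rTg4510 mice, against 15.6, 8.02, 7.91 and 15.8 CPM in LM controls. Arc was at 46.0, 190 and 115 CPM in rTg4510 mice, against 317, 92.6, 185 and 279 CPM in LM controls, and the groups overlapped. Fosb (8.15 to 14.7 CPM in rTg4510, 9.86 to 12.7 CPM in LM) and Egr1 (130 to 193 CPM in rTg4510, 115 to 289 CPM in LM) overlapped as well.

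The level of Egr2 was also set against that of Fos within each library. Per 100 counts of Fos there were 22.7, 10.4 and 9.23 counts of Egr2 in rTg4510 F1, F3 and M2, against 39.2, 47.9, 28.0 and 31.5 in LM F2, F3, M1 and M2. In rTg4510-Nano F1, F2, M2 and M3 there were 20.4, 20.1, 9.60 and 15.2, also all below the LM values. In the aging model the ratio was 15.7 to 24.8 in Old-Nano, 8.14 to 40.3 in old and 14.5 to 61.0 in young libraries. Values as low as those of rTg4510 mice thus also occurred in wild-type mice. Ratios of Junb, Nr4a1, Npas4 and Fosb to Fos were computed as well and are not described. The Egr2 ratio was chosen after its values were seen and has no test.

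The dentate granule markers, 5 of 5 detected, were at a sum of 195 to 245 CPM in rTg4510-Nano and 168 to 235 CPM in rTg4510 libraries, against 261 to 477 CPM in LM libraries, which did not overlap with the others. Their score overlapped, at -1.23 to 0.16 in rTg4510-Nano and -1.79 to 0.21 in rTg4510 libraries, against -0.28 to 1.19 in LM libraries. Choroid plexus markers, 9 of 9 detected, were high in all rTg4510 libraries as given above. The cortex score was -0.20 to 0.44 in rTg4510-Nano and -0.19 to -0.15 in rTg4510 libraries, against -0.03 to 0.12 in LM libraries. Summed cortex markers overlapped, at 113 to 145 CPM in rTg4510 and 141 to 181 CPM in LM libraries. The part of any of these lists in the lower values of Egr2, Junb, Nr4a1 and Ier5l was not tested.

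In rTg4510-Nano against LM mice, edgeR called Ier5l, lower with treatment and transgene together, among 4 of 15179 genes (0.0264%), and DESeq2 called Ier5l alone of the 10 among 55 of 15170 (0.363%). Ier5l was at 9.51, 9.47, 7.73 and 8.84 CPM in rTg4510-Nano F1, F2, M2 and M3, all below the LM values of 16.6 to 20.9 CPM. The log2 fold change of Ier5l was -1.04 (SE 0.12, adjusted p 0.0446 in edgeR and 6.2e-11 in DESeq2). It was -1.09 to -0.97 with 1 library left out, and the edgeR call held without rTg4510-Nano M2 (adjusted p = 0.0401) and was lost without any other library (adjusted p = 0.0794 to 0.368) and with sex as a covariate (adjusted p = 0.101).

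In that comparison 6 of the 10 genes had an unadjusted p under 0.05 (8.04% of all genes), and the median log2 fold change was -0.84, against 0.01 over all genes, with 9 negative. Without rTg4510-Nano M2, the library lowest for every member, the median was -0.59. All rTg4510-Nano libraries were below all LM libraries for Junb, Egr2, Nr4a1 and Ier5l, which held for 2.58% of all genes. Nr4a1 was at 52.6, 40.8, 11.3 and 38.4 CPM in rTg4510-Nano F1, F2, M2 and M3, a log2 fold change of -1.23 from LM controls (SE 0.40, adjusted p 0.611). Junb was at 64.3, 51.3, 18.1 and 51.5 CPM in the same libraries (log2 fold change -0.80, standard error 0.33, adjusted p = 0.611), and Egr2 at 2.56, 2.82, 0.78 and 1.87 CPM (log2 fold change -1.32, standard error 0.40, adjusted p = 0.611). Arc was at 154, 53.1, 32.8 and 81.3 CPM, of which F1 lay within the LM range, and had a log2 fold change of -1.45 (SE 0.52, adjusted p 0.611). Egr1 had a log2 fold change of -0.89 (SE 0.39, adjusted p 0.611). Without rTg4510-Nano M2 the log2 fold change was -0.94 for Nr4a1, -0.53 for Junb, -1.05 for Egr2, -1.19 for Arc and -0.65 for Egr1. That of Fos was -0.20 (SE 0.19, adjusted p 0.726) with all libraries and -0.060 without rTg4510-Nano M2.

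With Nanoligomer treatment in rTg4510 mice, neither edgeR nor DESeq2 called any of the 10 genes, and each gave 1 of them an unadjusted p under 0.05 (5.5% of all genes in edgeR), while edgeR called 8 of 15354 genes (0.0521%) and DESeq2 225 of 15352 (1.47%). That gene was Ier5l, with all rTg4510-Nano libraries (7.73 to 9.51 CPM) below all rTg4510 libraries (11.3 to 12.2 CPM), which held for 4.48% of genes. Its log2 fold change with treatment was -0.41 (SE 0.12, adjusted p 0.535), and -0.34 without rTg4510-Nano M2. Egr2 overlapped between rTg4510-Nano (0.78 to 2.82 CPM) and rTg4510 mice (1.59 to 2.63 CPM). Fosb, another AP-1 subunit, was at 18.3, 18.6, 3.31 and 6.75 CPM in rTg4510-Nano F1, F2, M2 and M3, against 14.7, 8.15 and 10.3 CPM in rTg4510 F1, F3 and M2. The F libraries of the treated group were thus above, and its M libraries below, every rTg4510 library. Npas4 (5.38 to 11.3 CPM in rTg4510-Nano, 6.33 to 15.0 CPM in rTg4510) and Egr1 (48.3 to 171 CPM in rTg4510-Nano, 130 to 193 CPM in rTg4510) overlapped. Fos had a log2 fold change of -0.38 (SE 0.21, adjusted p 0.955), and -0.23 without rTg4510-Nano M2. The median of the 10 genes was -0.39, and -0.21 without rTg4510-Nano M2. This comparison and the 2 with LM controls share libraries.

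**Figure D5:**
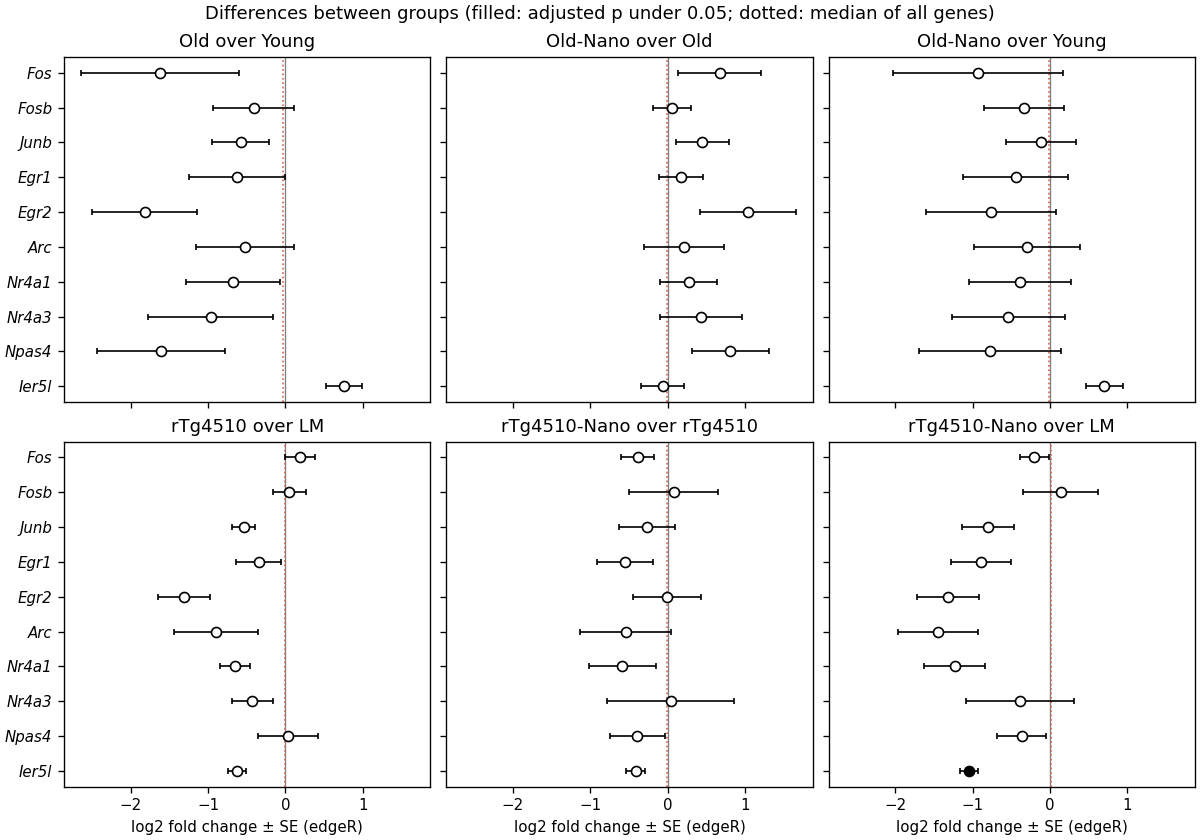
Log2 fold change and standard error from edgeR of the 10 genes in the 6 comparisons, each titled as the group on top over its reference; filled points have an adjusted p under 0.05, and the dotted line is the median of all genes tested. A single point is filled, Ier5l in rTg4510-Nano over LM at -1.04, and Ier5l is the member at 0.76 in Old over Young while the other 9 are negative.

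The differences between the 2 models were tested directly. The difference with age minus the difference with the tau transgene was largest, relative to its error, for Ier5l. It was 1.39 on the log2 scale (standard error 0.28), with every old library above every young one and every rTg4510 library below every LM one. The adjusted p was 0.0557 from edgeR, which called none of the 10 genes (1 at an unadjusted p under 0.05, against 9.43% of all) and 62 of 15329 genes (0.404%), and 0.000938 from DESeq2, which called Ier5l among 258 of 15326 genes (1.68%). In edgeR it was past the threshold without Old F2 (adjusted p = 0.0312), Old M1 (0.0432) or Young M4 (0.0463). For the difference with treatment in old mice minus that in rTg4510 mice, edgeR and DESeq2 called none of the 10 genes, none of which had an unadjusted p under 0.05 (3.93% of all genes did), while edgeR called 22 of 15383 genes (0.143%) and DESeq2 84 (0.546%). For Ier5l that difference was 0.33 (SE 0.34, adjusted p 0.9999).

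A wider set of activity genes was examined in the same fits. Of 51 other genes listed (AP-1 and bZIP factors, EGR and NR4A relatives, early response regulators, effectors and upstream factors), 50 were tested and edgeR called 0 in each of the 6 comparisons. At an unadjusted p under 0.05 there were 2 in old against young mice, 0 in Old-Nano against old mice, 3 in Old-Nano against young mice, 8 in rTg4510 against LM mice, 0 in rTg4510-Nano against rTg4510 mice and 4 in rTg4510-Nano against LM mice. Over all genes these shares were 10.3%, 1.21%, 10.6%, 13.7%, 5.5% and 8.04% in the same order. DESeq2 called 0, 0, 1, 4, 0 and 1 of the 50, beside 1.53%, 0%, 1.7%, 5.03%, 1.47% and 0.363% of all genes. The median log2 fold change of the 50 was -0.05, 0.06, 0.08, -0.10, -0.15 and -0.25 in that order.

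The 4 genes that DESeq2 called in rTg4510 against LM mice were all lower. Fosl2, an AP-1 subunit, had a log2 fold change of -0.98 (adjusted p = 0.000198) and Scg2, a precursor of secreted neuropeptides, of -0.63 (adjusted p = 0.000301). Srf, the factor that binds the CArG box, had -0.36 (adjusted p = 0.0248) and Per1, a clock gene that activity also induces, -0.57 (adjusted p = 0.0302). In edgeR these 4 had an adjusted p of 0.0703, 0.0633, 0.127 and 0.160. In rTg4510-Nano against LM mice DESeq2 called Per1, at -0.55 (adjusted p = 7.8e-06, and 0.211 from edgeR). The gene called in Old-Nano against young mice was Rgs2, an inhibitor of G protein signalling, at 0.36 (adjusted p = 0.0467, and 0.405 from edgeR).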

How the data were processed

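Poly(A)-selected RNA of mouse hippocampus was sequenced. The authors used fastp to trim the reads and STAR to align them to mm10 and deposited counts per gene symbol as whole numbers, without normalization. Counting program, strand setting and versions: not given in the sources used here. Without strand information, reads of a gene and of an overlapping antisense gene cannot be told apart.

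From the deposited counts, a separate fit was made for each pair of groups compared, keeping genes whose TMM-scaled counts averaged 10 or more, with edgeR 4.0.16 (quasi-likelihood, robust, two-sided, R 4.3.3) and a Benjamini-Hochberg threshold of 0.05 over all genes tested. Standard errors came from the F statistic. DESeq2 1.42.0, which the study used, was an alternative. CPM used TMM over the 23 distinct libraries, and log2 CPM a prior count of 2. Differences between models were tested as interaction terms. The procedure was also run on simulated counts with the same dispersion for every gene and no outlying libraries. That run does not bear on calls among the genes described here, whose spread between libraries it did not model. Further steps used Python 3.11.15, pandas 2.3.3 and matplotlib 3.10.9. Gene positions and exon lengths came from GENCODE vM21 (GRCm38), and promoters from RefSeq.

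The 10 genes, the other activity genes and the marker lists were chosen with earlier results of these data known. All 10 genes are named. Other activity genes are named where past the threshold of a tool run, and the 10 genes most like the members by Pearson r. A log2 fold change is given for Fos and Ier5l throughout and otherwise for genes with an unadjusted p under 0.05 or groups that do not overlap. Nr4a3 in old against young mice met neither with all libraries. It is given because it was the most negative gene without Young M4. Nothing in the labels says that replicates came from separate mice beyond their titles. The p-values set the difference between groups against the spread between these libraries.

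Alternatives were the DESeq2 Wald test, scaling by DESeq2 size factors, no filter and a mean count of at least 50, sex as a covariate (read from the letter in the title), 3 groups fitted together, both identical columns kept, a block by shared number, each library left out, an exact permutation test of log2 CPM, and leaving out rTg4510-Nano M2, Old M1 and Young M4, which carried markers of other brain regions. Old-Nano F1, highest in cortex markers, was kept when those libraries were left out. Leaving out the 5 libraries with a CA pyramidal score under -2, or Young M4 with Old-Nano M2, was chosen after seeing the data.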

Additional observations from a re-analysis of the deposited data

Results flagged for a closer look

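In the 5 groups of 4 libraries, 50 pairs of a gene and a group were examined for a library far from the other 3, and 2 had one, where chance gives about 1 in 20. Nr4a3 in Young M4 was at 10.6 CPM, against 158 to 182 CPM in the other young libraries. Fosb in LM F3 was at 12.7 CPM, against 9.86 to 10.1 CPM in the other LM libraries, a small difference that stands out because those 3 lie close together. For Ier5l every old library was above every young one and every rTg4510 library below every LM one. The difference between the 2 contrasts was 1.39 on the log2 scale (standard error 0.28, adjusted p = 0.0557 from edgeR), past the threshold in DESeq2 and not in edgeR.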

How the results depend on the processing

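Ier5l kept its direction in every alternative run for old against young mice and for the 3 comparisons of the tau model, and in the difference with age minus that with the transgene. Its call in rTg4510-Nano against LM mice was the only edgeR call among the 10 genes. It was lost (0 called) with sex as a covariate (adjusted p = 0.101) and with the replicate block (adjusted p = 0.321), and the number called was 0 to 1 with 1 library left out. In rTg4510 against LM mice, where 0 were called, DESeq2 called 4, fitting 3 groups together called 1 (Ier5l, adjusted p = 0.0230) and keeping both identical columns called 2 (Ier5l, 0.0157, and Egr2, 0.0442). For age minus transgene, where 0 were called, Ier5l (1 called) passed with DESeq2 (0.000938), with both identical columns (0.0253), without the libraries with other brain regions (0.0352) and without those low in CA markers (0.0259), with 0 to 1 called when 1 library was left out. The cause was not tested in any of these.

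The median log2 fold change of the 10 genes with 1 library left out was -0.89 to 0.17 in old against young mice, -0.07 to 0.58 in Old-Nano against old, -0.72 to 0.52 in Old-Nano against young, -0.57 to -0.33 in rTg4510 against LM, -0.46 to -0.19 in rTg4510-Nano against rTg4510 and -1.03 to -0.59 in rTg4510-Nano against LM. It was 0.28 in old against young mice without Old M1 and Young M4, which are also the low-CA libraries of that pair, and 0.59 in Old-Nano against young mice without the low-CA libraries.

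Fos changed direction in the aging model. In old against young mice it was 0.61 without Old M1 and Young M4 (both settings), 0.67 with the replicate block and -2.01 to 0.44 with 1 library left out. In Old-Nano against old mice it was -0.070 without Old-Nano M2 and -0.070 to 0.93 with 1 library left out. In Old-Nano against young mice it was -0.93 with all libraries, 1.13 without Young M4, 1.37 without the low-CA libraries, 0.37 without Young M4 and Old-Nano M2, 0.040 as a difference of mean log2 CPM and -1.69 to 1.13 with 1 library left out. Ier5l in Old-Nano against old mice was 0.18 without Old M1, 0.042 without the low-CA libraries and -0.21 to 0.18 with 1 library left out.

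The labels do not say whether the shared numbers pair the mice. Same-number libraries correlated at -0.30 to 0.38 over 15357 genes where 2 numbers were shared. Where 1 was shared, the correlation was 0.44 for F2 of Old-Nano and old mice and 0.50 for F2 of Old-Nano and young mice. Such correlations cannot settle whether mice were paired. With the replicate block the median was 0.23 in old against young mice, -0.21 in rTg4510 against LM, -0.55 in rTg4510-Nano against rTg4510 and -1.62 in rTg4510-Nano against LM, and edgeR called 0, 289, 0 and 0 genes in that order. No paired analysis was possible for the Old-Nano comparisons because those groups share 1 number. Over all genes, edgeR and DESeq2 called 2 and 235 in old against young mice, 1 and 262 in Old-Nano against young, 126 and 762 in rTg4510 against LM, 8 and 225 in rTg4510-Nano against rTg4510, 4 and 55 in rTg4510-Nano against LM, 62 and 258 for age minus transgene and 22 and 84 for the treatment difference. With sex as a covariate edgeR called 34 in rTg4510 against LM, and without rTg4510 F1 it called 364. The lowest member count was 17, for Egr2 in rTg4510-Nano M2.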
